A study of Mus musculus with 12 samples.

Results

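*Spp1* and 8 genes that are known as markers of lipid-associated macrophages were followed in the liver, 9 of the 54532 genes in the deposited table. They were taken by name, as *Spp1*, *Trem2*, *Gpnmb*, *Cd9*, *Cd63*, *Lgals3*, *Fabp5*, *Itgax* and *Cd44*, and their selection used no threshold on a measured value. Earlier results of these data were known when they were chosen. Counts of members set beside shares of all genes therefore only describe these data. Livers came from male C57BL/6J mice that were put on their diets at the age of 5 weeks and kept on them for 26 weeks, with 3 mice in each of 4 groups. ND-fed mice received a normal diet and control mice a high-fat diet alone. HYA-treated and LA-treated mice received the same high-fat diet with 1% HYA (10-hydroxy-*cis*-12-octadecenoic acid) or 1% linoleic acid (LA), the fatty acid from which gut lactic acid bacteria form HYA. All 12 mice were wild type, and by design the 3 high-fat diet groups differed only in the added fatty acid. The authors report that HYA-treated mice gained less weight and had lighter livers than control mice. Whole liver mRNA was sequenced, so the values average over hepatocytes, macrophages, bile duct cells, stellate cells and endothelium.

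Lipid-associated macrophages are cells that gather around dying, fat-laden hepatocytes or adipocytes and clear lipid through lysosomes. In fatty liver, monocyte-derived macrophages of this kind appear beside the resident Kupffer cells. TREM2 is their lipid-sensing surface receptor and signals through the adaptor TYROBP. Osteopontin, the secreted product of *Spp1*, binds integrins and CD44 and is linked to hepatic fibrosis, and bile duct cells and activated stellate cells can make it too. Most of the other members are likewise found in further cell types.

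Control livers had more mRNA of all 9 members than ND-fed livers, and the mice of these groups did not overlap for any of them. *Gpnmb* and *Trem2* rose from a few fragments per liver, and *Spp1* rose 5.61-fold from a level that was already well above 0. In HYA-treated livers the mean of each of the 9 members was below that of control livers, at 35.6% to 79.6% of it, and *Spp1*, *Cd9*, *Cd63*, *Itgax* and *Gpnmb* passed the test. In LA-treated livers the means were at 70.5% to 99.5% of control, and no member passed.

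Members were called at an adjusted p under 0.05 in limma with Benjamini-Hochberg adjustment over the 11083 genes that averaged 1 FPKM or more across the 12 mice. FPKM stands for fragments scaled to exon length and library size, and fitted differences are on the scale of log2(FPKM + 1), which makes changes of genes near 0 look small. From 17169064 to 25220880 fragments fell on genes in each mouse. Nothing in the labels says whether the mice of a group shared a cage, so the tests measure the spread between these mice.

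The promoters of 4 members are shown to place them in the genome, namely that of *Spp1*, the most abundant member, and those of 3 surface receptors that were near 0 in ND-fed livers. Each is the stretch of 250 bases before the RefSeq transcript start, read 5′ to 3′ on the strand of the gene. Capitals mark matches on either strand to a TATA box, TATAAA. They also mark matches to the AP-1 motif, which is TGANTCA. The last motif marked is the core of PU.1 sites, with the letters GAGGAA.
Spp1 (GRCm38, chr5:104434861-104435110, plus strand): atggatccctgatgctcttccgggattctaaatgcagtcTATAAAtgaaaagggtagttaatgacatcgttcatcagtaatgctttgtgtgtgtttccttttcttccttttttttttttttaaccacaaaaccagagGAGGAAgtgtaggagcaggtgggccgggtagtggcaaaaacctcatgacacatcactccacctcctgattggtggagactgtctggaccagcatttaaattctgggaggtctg
Trem2 (GRCm38, chr17:48346151-48346400, plus strand): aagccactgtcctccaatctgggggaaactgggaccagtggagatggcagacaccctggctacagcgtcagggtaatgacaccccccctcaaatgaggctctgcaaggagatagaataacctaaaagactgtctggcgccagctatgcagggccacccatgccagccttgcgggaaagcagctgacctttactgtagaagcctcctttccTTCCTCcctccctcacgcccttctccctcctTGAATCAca
Gpnmb (GRCm38, chr6:49036268-49036517, plus strand): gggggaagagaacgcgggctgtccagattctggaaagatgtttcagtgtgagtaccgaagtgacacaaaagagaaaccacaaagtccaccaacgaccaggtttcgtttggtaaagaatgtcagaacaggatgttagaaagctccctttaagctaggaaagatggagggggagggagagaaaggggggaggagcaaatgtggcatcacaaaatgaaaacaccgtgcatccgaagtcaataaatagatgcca
Itgax (GRCm38, chr7:128129300-128129549, plus strand): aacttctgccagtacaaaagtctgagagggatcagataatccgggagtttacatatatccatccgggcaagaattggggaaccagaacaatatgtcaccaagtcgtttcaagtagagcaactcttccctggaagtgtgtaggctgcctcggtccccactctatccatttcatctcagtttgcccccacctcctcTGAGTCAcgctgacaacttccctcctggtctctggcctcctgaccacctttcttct

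RefSeq windows of 300 bases, which run to 50 bases past the start, were found for 8 of the 9 members (9 windows, since *Spp1* has 2 starts), and *Fabp5* had none. TGANTCA was present in the windows of *Itgax*, *Trem2* and *Gpnmb* (in *Gpnmb* just past the start, outside the stretch printed), and 7.81% of all 32817 windows hold it. GAGGAA was in those of *Spp1*, *Trem2*, *Cd63* and *Cd44*, against 28.27% of all windows. TATAAA was present in the first *Spp1* window alone, against 13.62%. CACGTG, the E-box core bound by lysosomal regulators of the MiT/TFE family (7.15% of all windows), had a match in no window of a member. These are matches of letters and not sites of binding.

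*Spp1* lies on chromosome 5 (104435118 to 104441050, plus strand, ENSMUSG00000029304) with 1.648 kb of exon. Its level was 16.0, 22.6 and 24.3 FPKM in the ND-fed mice, 166, 74.2 and 113 in the control mice, 35.6, 41.6 and 50.1 in the HYA-treated mice and 128, 77.3 and 101 in the LA-treated mice. Every HYA-treated liver was above every ND-fed liver and below every control and LA-treated liver, whereas control and LA-treated livers overlapped. The fitted log2 difference was 2.38 ± 0.28 (SE) for control against ND (adjusted p = 0.000115) and -1.39 ± 0.28 for HYA against control (adjusted p = 0.0347). The latter call held in 5 of the 12 fits that left out 1 mouse. It was lost without the limit of 1 FPKM (limma adjusted p = 0.0754). *Spp1* had the widest relative spread of the members among control livers, with an SD of 39.1% of the mean and a 2.24-fold range. In bulk RNA, fewer cells that express a gene and less RNA per cell cannot be told apart, here and for every member.

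*Cd44*, the hyaluronan receptor that also binds osteopontin, had the smallest fold between control and ND, 1.76. Its level was 2.13, 1.32 and 1.75 FPKM in ND-fed, 2.85, 2.88 and 3.42 in control, 2.67, 1.77 and 1.91 in HYA-treated and 3.33, 3.16 and 2.61 in LA-treated livers. Control livers lay above all ND-fed livers and narrowly above all HYA-treated ones. The rise in control against ND was 0.58 ± 0.13 (log2, adjusted p = 0.00688), and the difference in HYA against control was -0.38 (95% confidence interval -0.68 to -0.09, adjusted p = 0.150).

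*Itgax* encodes CD11c, an integrin chain of dendritic cells that is also borne by macrophages of obese tissue. It was at 0.356, 0.288 and 0.116 FPKM in ND-fed, 2.31, 1.63 and 2.30 in control, 1.17, 0.827 and 0.783 in HYA-treated and 1.76, 1.20 and 1.62 in LA-treated livers. The 3 high-fat diet groups lay above all ND-fed livers, and the highest HYA-treated liver was just below the lowest LA-treated one. It rose by 1.29 ± 0.13 (log2, adjusted p = 4.46e-05) in control against ND. It fell by 0.67 ± 0.13 in HYA against control (adjusted p = 0.0304), a call that was lost with a pseudocount of 0.1 (-1.09, adjusted p = 0.0736).

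*Trem2* (chromosome 17, 48346401 to 48354147) had the lowest mean per kilobase of the members over the 12 mice. It was at 0.115, 0.0509 and 0.0787 FPKM in ND-fed, 1.09, 0.606 and 1.24 in control, 0.469, 0.457 and 0.507 in HYA-treated and 1.12, 0.939 and 0.744 in LA-treated livers. The HYA-treated livers formed the tightest group, above all ND-fed and below all control and LA-treated livers. With a mean of 0.618 FPKM over the 12 mice it was below the limit for the test. The ND-fed values rest on 10, 4 and 7 fragments, and the pooled ratio of control to ND was 11.8 (95% interval 7.60 to 19.4, counting error only). In a fit on recovered fragments (voom in limma) with a lower limit, set after the data were seen, the log2 difference was 3.48 for control against ND (adjusted p = 0.000268) and -0.95 for HYA against control (adjusted p = 0.0823).

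*Gpnmb*, a membrane glycoprotein of lysosome-rich macrophages, showed the largest fold. Its level was 0.0175, 0.0387 and 0.0598 FPKM in ND-fed, 2.62, 1.84 and 2.65 in control, 0.673, 0.525 and 1.38 in HYA-treated and 1.94, 1.27 and 1.80 in LA-treated livers. HYA-treated mouse 3 lay within the range of the LA-treated livers, and the other HYA-treated livers lay below it. The ND-fed values rest on 2, 4 and 7 fragments, so that the pooled control to ND ratio of 61.0 has a counting interval of 35.5 to 115. The fitted difference was 1.69 ± 0.17 for control against ND (adjusted p = 3.78e-05) and -0.88 ± 0.17 for HYA against control (adjusted p = 0.0296). On recovered fragments, where the pseudocount of 1 plays no part, these differences were 5.89 and -1.49.

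*Lgals3*, which encodes galectin-3, a lectin secreted by activated macrophages, was at 3.28, 1.86 and 3.32 FPKM in ND-fed, 17.3, 8.82 and 12.0 in control, 6.63, 4.45 and 8.47 in HYA-treated and 12.0, 9.11 and 11.2 in LA-treated livers. The highest HYA-treated liver was just below the lowest control liver. The rise in control against ND was 1.82 ± 0.26 (log2, adjusted p = 0.000357), and the difference in HYA against control was -0.86 (95% confidence interval -1.42 to -0.29, adjusted p = 0.102).

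The tetraspanins CD9 and CD63 organise membrane domains, CD9 at the cell surface and CD63 in late endosomes and lysosomes. *Cd9* was at 7.32, 7.33 and 7.54 FPKM in ND-fed, 16.0, 13.7 and 17.8 in control, 9.89, 8.01 and 9.38 in HYA-treated and 17.0, 15.7 and 12.6 in LA-treated livers. Its 3 ND-fed livers differed by less than those of any other member, with an SD of 1.67% of the mean. *Cd9* rose by 1.00 ± 0.12 (log2) in control against ND (adjusted p = 0.000112) and fell by 0.74 ± 0.12 in HYA against control (adjusted p = 0.0172).

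*Cd63* was at 0.680, 0.479 and 0.620 FPKM in ND-fed, 6.39, 3.57 and 5.98 in control, 1.69, 1.96 and 2.02 in HYA-treated and 5.31, 3.96 and 4.75 in LA-treated livers. The HYA-treated livers lay apart from those of every other group. Of the tested members it had the lowest adjusted p in both comparisons, with a log2 difference of 1.96 ± 0.16 for control against ND (adjusted p = 1.18e-05) and -1.10 ± 0.16 for HYA against control (adjusted p = 0.0168). A processed copy, *Cd63-ps*, was listed at means of 0.404, 2.40, 1.03 and 2.10 FPKM in ND, control, HYA and LA, the same order as the gene, and reads could have been divided between the copies. The *Cd63* values are uncertain to that extent.

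*Fabp5* encodes a cytosolic carrier of fatty acids in macrophages and epithelia, and it stood apart from the other members. Its level was 1.91, 3.39 and 4.02 FPKM in ND-fed, 10.5, 7.27 and 7.54 in control, 7.49, 8.04 and 4.66 in HYA-treated and 9.44, 5.22 and 6.68 in LA-treated livers. All high-fat diet livers exceeded all ND-fed livers, and the 3 high-fat diet groups overlapped with each other. The rise in control against ND was 1.22 ± 0.26 (log2, adjusted p = 0.00395), and the difference in HYA against control was -0.30 (95% confidence interval -0.87 to 0.26, adjusted p = 0.592).

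**Figure D1:**
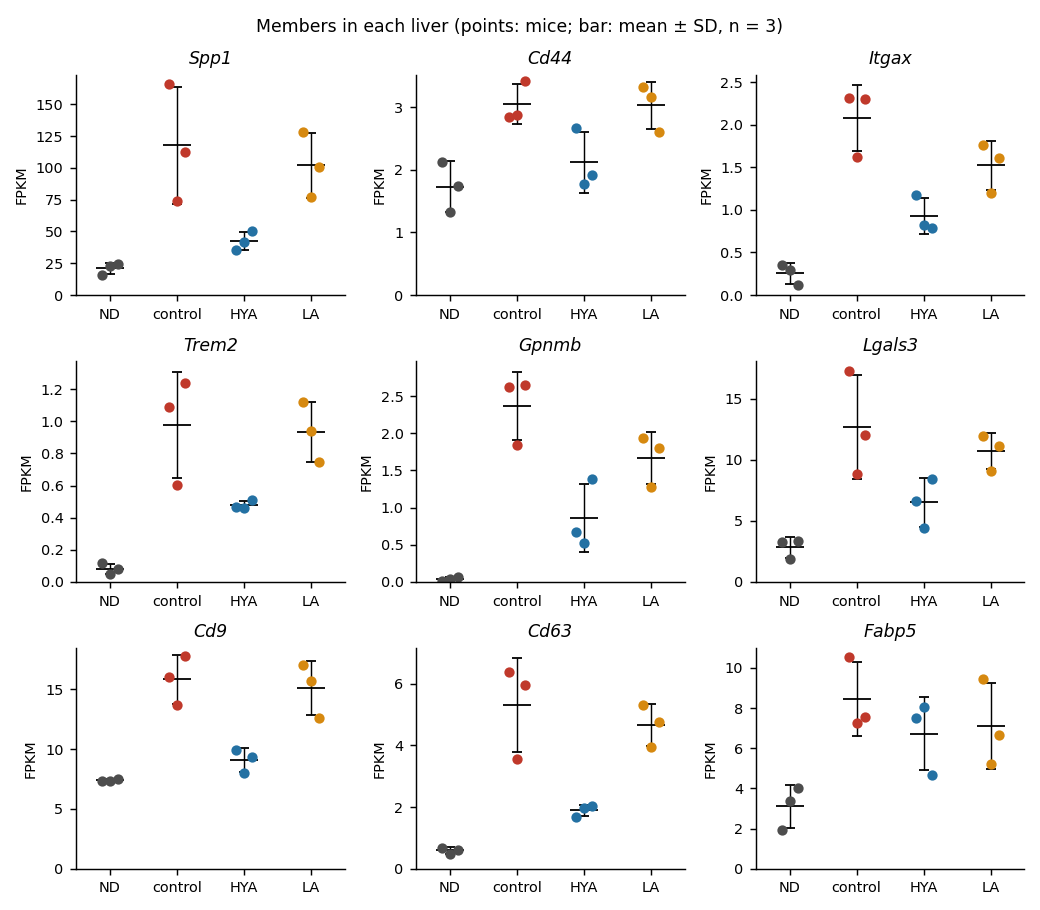
FPKM (linear axis from 0, its own scale in each panel) of the 9 members in each of the 12 livers, with 1 point per mouse and a bar for the mean ± SD of 3 mice. HYA-treated livers lie below all control livers in 8 panels, and *Fabp5* is the exception.

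In control against ND, 8 of the 8 members tested were called higher, whereas 16.2% of all tested genes were. Of these, 6 also passed an absolute log2 difference of 1 (2.25% of tested genes, higher), and *Cd9* and *Cd44* did not. *Gpnmb*, *Itgax* and *Cd63* reached the limit of 1 FPKM only through the high-fat diet groups, so the count over tested members is not independent of the comparison. Without any limit on low values, 9 of 9 members were called higher, against 8.69% of 26045 genes. Ranges of control and ND were apart for 9 of 9 members, against 19.9% of tested genes. The median log2 difference of the tested members was 1.49, beside -0.04 over all tested genes.

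In HYA against control, 5 of the 8 tested members were called lower, while 1.23% of all tested genes were. *Spp1* and *Cd63* also passed the log2 difference of -1, as did 0.144% of tested genes. That limit is on the scale of log2(FPKM + 1). *Gpnmb* and *Itgax* did not pass it, though in FPKM they were at 36.3% and 44.5% of control (voom log2 difference -1.49 and -1.18). *Lgals3*, *Cd44* and *Fabp5* did not pass the adjusted p of 0.05. *Gpnmb* and *Itgax* averaged below 1 FPKM in HYA-treated and ND-fed livers and reached the limit only through control and LA-treated livers, so their calls are not independent of that limit (adjusted p = 0.0659 each in limma without it). Ranges were apart for 8 of 9 members, against 8.87% of tested genes that were lower in the same way. Without a limit on low values, *Cd9* and *Cd63* were called, 2 of 9 members against 0.246% of genes. *Spp1*, far above the limit in every group, lost its call as well (limma adjusted p = 0.0754). The call of all 5 rests on single mice, since 0 members were called without control mouse 1 or without HYA-treated mouse 2, 2 when control mouse 3 was left out, and 3 when the first or the third HYA-treated mouse was. Without control mouse 2, which was the lowest control liver for 8 of 9 members, 6 were called. Over all 12 ways of leaving out a mouse, the log2 difference of *Spp1* ranged from -1.68 to -1.10 and that of *Cd63* from -1.31 to -0.97, and a fit of only the 2 groups compared called 0 members and 0 of all genes (limma, 1723 genes at an unadjusted p under 0.05).

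In LA against control, 0 of 8 tested members passed, as did 0% of tested genes (limma, with 0 members and 294 genes at an unadjusted p under 0.05). With voom, 0 members passed after adjustment. The groups overlapped for all 9 members, and 3.61% of tested genes had LA-treated livers below all control livers. The intervals show what could have been missed on the scale of log2(FPKM + 1), where changes of genes near 0 look small. For *Spp1* the log2 difference was -0.16 (95% confidence interval -0.77 to 0.46), for *Cd63* -0.13 (-0.48 to 0.22), for *Cd9* -0.07 (-0.32 to 0.19) and for *Cd44* -0.01 (-0.30 to 0.29). *Gpnmb* (-0.33, interval -0.70 to 0.03) and *Itgax* (-0.29, interval -0.57 to 0.00083) lay further below control.

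HYA and LA were given at the same share of the diet and for the same time, and HYA differs from LA by a hydroxyl group in place of a double bond. In HYA against LA, *Cd9* (log2 difference -0.67 ± 0.12, adjusted p = 0.0380) and *Cd63* (-0.97 ± 0.16, adjusted p = 0.0365) were called lower, 2 of 8 tested members against 0.253% of tested genes. *Spp1* was at 41.6% of its LA level (-1.23, 95% confidence interval -1.84 to -0.61, adjusted p = 0.0703). Ranges were apart for 6 of 9 members, against 10.4% of tested genes, and overlapped for *Gpnmb*, *Cd44* and *Fabp5*. For *Fabp5* the difference was -0.07 (interval -0.63 to 0.50). These calls depend on single mice as well. Leaving out any ND-fed mouse, any HYA-treated mouse, LA-treated mouse 1 or LA-treated mouse 2 left 0 members called, leaving out LA-treated mouse 3 left 1, and leaving out control mouse 1 or 2 gave 3. Log2 differences ranged from -0.79 to -0.58 for *Cd9* over these fits.

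**Figure D2:**
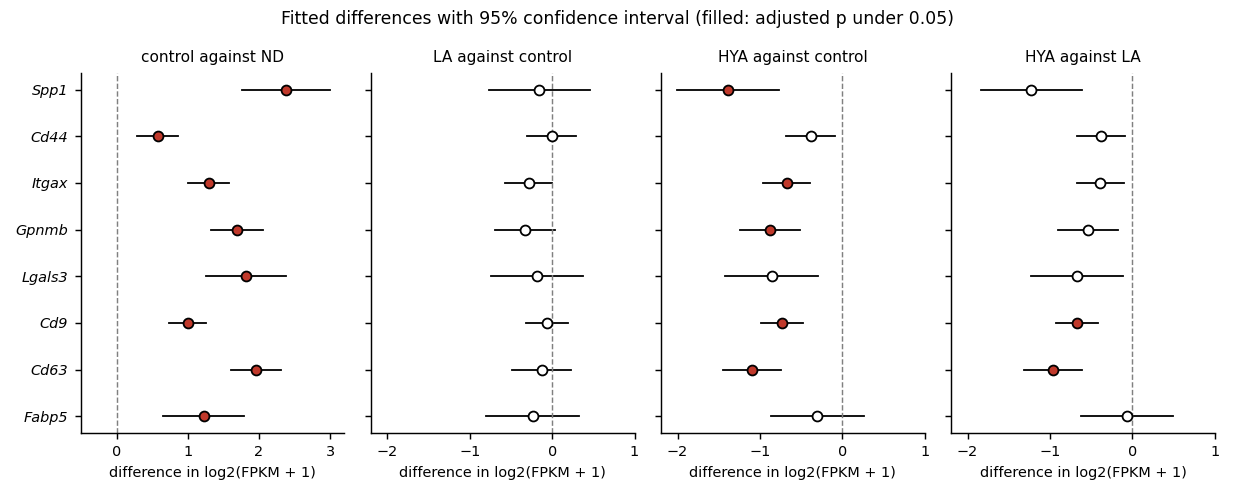
Fitted differences in log2(FPKM + 1) of the 8 tested members with their 95% confidence intervals, in 4 comparisons (1 panel each, the first on another axis range). Filled points passed an adjusted p of 0.05, which were 8 in control against ND, 0 in LA against control, 5 in HYA against control and 2 in HYA against LA.

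HYA-treated livers kept part of the rise. In HYA against ND, 6 of 8 tested members were called higher (8.72% of tested genes were), the exceptions being *Cd9* (0.26, 95% confidence interval 0.01 to 0.52, adjusted p = 0.148) and *Cd44* (0.19, interval -0.10 to 0.48, adjusted p = 0.356). Ranges were apart for 8 of 9, against 16.6% of tested genes. 3 were called without HYA-treated mouse 1 or ND-fed mouse 2. In LA against ND, 8 of 8 were called higher (14.4% of tested genes), and ranges were apart for 9 of 9 (20.5%). *Gpnmb*, *Itgax* and *Cd63* reached the limit of 1 FPKM only through the high-fat diet groups, so these counts over tested members are not independent of the comparisons. Without any limit on low values, 3 of 9 members were called in HYA against ND (800 of 26045 genes). In LA against ND 9 of 9 were (1869 of 26045 genes). These comparisons share their mice with those above.

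Expressed as a share of the distance from the ND mean to the control mean in FPKM, the HYA mean was at 20.1% for *Cd9*, 22.2% for *Spp1* and 27.5% for *Cd63*. It was at 29.4% to 44.2% for *Cd44*, *Gpnmb*, *Itgax*, *Lgals3* and *Trem2*, and at 67.8% for *Fabp5*. The LA mean was at 69.6% to 98.8% of that distance over the 9 members. These shares use the same control and ND mice and carry no test.

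Members differed widely in level, and their order was not the same in every group. Per kilobase in control livers *Spp1* came first at 118 ± 46.0 FPKM (SD, n = 3), followed by *Cd9* at 15.9 ± 2.05, *Lgals3* at 12.7 ± 4.28 and *Fabp5* at 8.45 ± 1.82. *Cd63* followed at 5.31 ± 1.52, *Cd44* at 3.05 ± 0.32, *Gpnmb* at 2.37 ± 0.46, *Itgax* at 2.08 ± 0.39 and *Trem2* at 0.979 ± 0.331. *Spp1* was above all others in every mouse, whereas the ranges of *Cd9* and *Lgals3*, of *Lgals3* and *Fabp5* and of *Gpnmb* and *Itgax* overlapped among control livers. In ND-fed livers *Spp1* (21.0 ± 4.42) and *Cd9* (7.40 ± 0.12) were again highest, and *Gpnmb* at 0.0386 ± 0.0212 was the lowest.

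Members varied together across mice. Over the 36 pairs of members, the Pearson correlation of log2(FPKM + 1) across the 12 mice had a median of 0.92 (range 0.59 to 0.98), which includes the group differences. After subtraction of the group means the median was 0.40 (range -0.29 to 0.82), and 32 of the 36 pairs were positive. The points share libraries and their scaling, no such value was taken for pairs of other genes, and no test was made. *Cd63* and *Spp1* had the highest median with the other members within groups (0.62 and 0.56), and *Fabp5* and *Cd44* the lowest (0.13 and 0.22). Control mouse 2 was the lowest control liver for 8 of 9 members, and LA-treated mouse 1 was the highest LA-treated liver for 9 of 9. No share over all genes was taken for these ranks.

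The genes with a symbol whose pattern was most like that of *Spp1* over the 12 mice were *Psmd8* (Pearson r = 0.987), *Mfge8* (0.986), *Vat1* (0.984), *Krt8* (0.983) and *Adamts10* (0.980). *Mfge8* encodes a secreted bridge between apoptotic cells and integrins, and *Krt8* a keratin of hepatocytes and bile duct cells. *Krt8* was at 145 ± 17.6 FPKM in ND, 258 ± 42.3 in control, 172 ± 12.95 in HYA and 258 ± 21.1 in LA. Within groups, over deviations from the group means, the leading genes were *Ptgr1* (0.927), *Krt8* (0.921), *Mfge8* (0.919), *Nabp1* (0.917) and *Krt18* (0.912), so that *Krt8* and *Mfge8* were in both lists. The single most similar genes over the 12 mice were *Sprr1a* for *Cd63* (0.992), *Tmem176a* for *Cd9* (0.983), *Spg21* for *Lgals3* (0.980), *Fkbp1a* for *Gpnmb* (0.978), *Pgm1* for *Itgax* (0.977), *Clec4a3* for *Cd44* (0.971) and *Pdzk1ip1* for *Fabp5* (0.968). Within groups they were *Arhgef40* for *Cd63* (0.935), *Pdlim1* for *Cd9* (0.938), *Med13l* for *Lgals3* (0.966), *Ncln* for *Gpnmb* (0.935), *Snx7* for *Itgax* (0.952), *Phc2* for *Cd44* (0.944) and *Fzd6* for *Fabp5* (0.928). With 12 mice and 11083 genes, high values of this kind are found for any pattern, and they are given as a description.

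Receptors and partners of the members were read from lists of related genes, 103 genes in all, of which 81 were tested. In control against ND 53 were called higher and 6 lower, with a median log2 difference of 0.44. Over all tested genes 16.2% were called higher in this comparison, and 1.23% lower in HYA against control. With a share as low as the latter, 0 called in HYA against control in a short list says little about that list. In HYA against control 0 were called higher and 7 lower, with a median of -0.19, beside 0.02 over all tested genes. Of the 81 differences 61 were below 0, whereas the median over all tested genes was above 0. The count of 7 became 0 when the first or the third control mouse, or the second or the third HYA-treated mouse, was left out, 1 when the first HYA-treated mouse was, 2 or 3 when the third or the second LA-treated mouse was, and 13 when the second control mouse was, and it rose to 21 with values scaled to TPM.

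Of 6 tested integrin receptors of osteopontin, 4 were called higher in control against ND and 0 in either direction in HYA against control. The largest changes were those of *Itga8* (0.954 ± 0.286 to 1.90 ± 0.404 FPKM, mean ± SD, n = 3, with a log2 difference of 0.57 and a limma adjusted p of 0.00562) and *Itgb5* (22.9 to 32.9 FPKM, 0.50, limma adjusted p = 0.00359). Among *Trem2* adaptors and signalling genes, 6 of 6 were higher in control and 0 of 6 passed in HYA against control. *Tyrobp*, the adaptor of TREM2, went from 15.7 to 28.5 FPKM (log2 difference 0.84, adjusted p = 0.00137) and was at 22.1 in HYA, and *Plcg2*, a phospholipase downstream of it, went from 0.757 to 1.68 and was at 0.995. For the partner and sister chains of *Itgax*, *Itgb2* was higher in control (0.53, adjusted p = 0.0141) and 0 of 2 passed in HYA. Among genes of hyaluronan turnover and binding, *Lyve1* was higher (1.37, adjusted p = 0.000225) and *Hyal1* lower in control (-0.31, adjusted p = 0.0185), and 0 of 4 passed in HYA.

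In the families of the members, 6 of 12 tested tetraspanins were called higher and 1 lower in control against ND, and *Tspan8* and *Cd151* fell in HYA against control. *Tspan8* was at 0.566 FPKM in ND, 2.65 in control, 0.936 in HYA and 2.31 in LA (log2 difference -0.91 in HYA against control, adjusted p = 0.0326), and *Cd151* fell by 0.22 (adjusted p = 0.0357). Of 5 tested galectins 4 were higher in control, and *Lgals1* alone fell in HYA against control (from 121 to 76.5 FPKM, -0.65, adjusted p = 0.0187) and was lower in HYA against LA (adjusted p = 0.0365). Of 4 tested fatty acid-binding proteins 3 were higher in control, including *Fabp4* (1.36, adjusted p = 0.000162) and *Fabp2* (1.32, adjusted p = 5.69e-06), and 0 passed in HYA. *Fabp2* was at 167 FPKM in control and 191 in HYA. Of 9 tested MiT/TFE factors and lysosomal membrane genes 2 were higher and 1 lower in control, the largest being *Lamp1* (0.32) and *Lamp2* (-0.30), and 0 passed in HYA.

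Among 35 other tested genes of lipid-associated macrophages, 28 were called higher and 3 lower in control against ND, with a median of 0.62. In HYA against control 5 fell and 0 rose, with a median of -0.28. These 5 were *Anxa5*, a phospholipid-binding annexin (from 167 to 98.9 FPKM, -0.73, adjusted p = 0.0401), *Lgals1*, *Cstb*, a cathepsin inhibitor (-0.40, adjusted p = 0.0442), *Vat1* (-0.39, adjusted p = 0.0357) and *Ctsd*, a lysosomal protease (-0.26, adjusted p = 0.0333). None of the 35 passed in LA against control (limma with Benjamini-Hochberg), and *Lgals1* alone passed in HYA against LA.

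**Figure D3:**
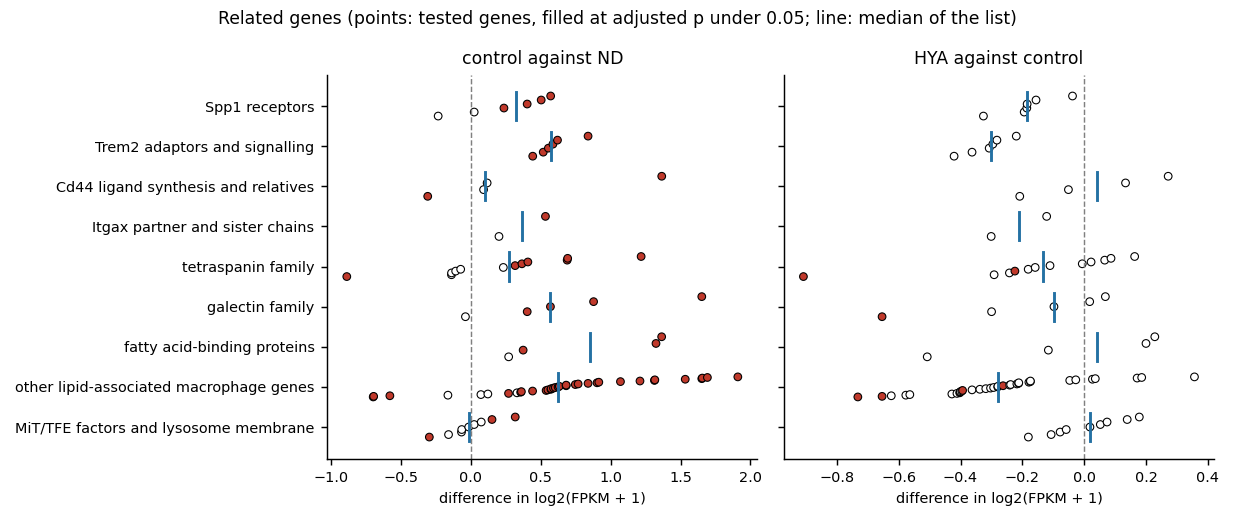
Fitted differences in log2(FPKM + 1) of tested related genes by list, in control against ND (left) and HYA against control (right, narrower axis). Filled points passed an adjusted p of 0.05 and blue lines are list medians, which lie at 0.62 and -0.28 for other genes of lipid-associated macrophages.

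The sum of markers shared by all macrophages did not overlap between control and ND-fed livers, whereas its ranges in HYA-treated and control livers did. Summed over 12 pan-macrophage markers, the level was 234 to 328 FPKM in ND-fed, 374 to 434 in control, 284 to 380 in HYA-treated and 369 to 394 in LA-treated livers. Of these, 8 of 12 were called higher in control against ND and 0 of 12 lower in HYA against control, where the median log2 difference was -0.35. The sum was 1.41-fold higher in control than in ND (exact two-sided permutation p = 0.1, the smallest that 3 against 3 mice allow) and 0.791 of control in HYA (p = 0.2, exact). The most abundant were *Lyz2* (69.1 FPKM in ND, 92.4 in control, 73.8 in HYA and 88.8 in LA), *C1qb* (49.0, 77.0, 59.5 and 71.8) and *C1qa* (54.7, 70.5, 56.8 and 67.1). Their part in the members' values was not tested, and the members were also read per unit of this sum.

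Relative to the summed pan-macrophage markers, all 9 members were higher in control than in ND without overlap, by 1.27-fold (*Cd44*) to 48.2-fold (*Gpnmb*), and 4.8% of all tested genes were on the same scale. *Spp1* was at 7.53% ± 2.44 of the sum in ND, 29.0% ± 11.0 in control, 13.6% ± 4.14 in HYA and 26.6% ± 5.77 in LA (SD, n = 3). Of the 9 ratios, 6 were lower in HYA than in control without overlap (*Spp1*, *Gpnmb*, *Cd9*, *Cd63*, *Itgax* and *Cd44*, exact p = 0.1 each), against 0.974% of all tested genes. The HYA to control fold of the ratio was 0.426 for *Gpnmb*, 0.463 for *Cd63*, 0.476 for *Spp1* and 0.993 for *Fabp5*. The LA to control fold ran from 0.742 for *Gpnmb* to 1.05 for *Cd44*. These groups were apart for *Gpnmb* (exact permutation p = 0.1) and overlapped for the other 8 members, with no share over all genes taken.

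The 6 Kupffer cell markers, which mark resident macrophages, summed to 128 to 203 FPKM in ND-fed, 154 to 181 in control, 121 to 174 in HYA-treated and 173 to 182 in LA-treated livers, and all groups overlapped. In control against ND *Cd5l* was called higher and 2 others lower (median -0.19), and 0 of 6 passed in HYA against control. The sum thus joins markers that moved in opposite directions, and its overlap does not mean that the single markers were unchanged. The most abundant, *Cd5l*, was at 63.3, 90.7, 70.7 and 92.3 FPKM in ND, control, HYA and LA, *Clec4f* at 44.7, 43.8, 43.7 and 47.1, and *Vsig4* at 20.9, 16.7, 18.1 and 21.6. Relative to this sum, in which *Cd5l* weighs most, all 9 members were higher in control than in ND without overlap (10.3% of all tested genes were). *Cd63*, *Itgax* and *Cd44*, 3 of 9, were lower in HYA than in control without overlap (0.911% of all tested genes were).

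Monocyte markers (7 genes, led by *Plac8*, *Ccr2* and *Ly6c2*) summed to 3.07 to 4.55 FPKM in ND-fed, 6.51 to 9.39 in control, 3.57 to 7.15 in HYA-treated and 6.76 to 7.65 in LA-treated livers. *Plac8*, the only one tested, was higher in control than in ND (0.75, adjusted p = 0.00407). Dendritic cell markers (8 genes, led by *Zbtb46*, *Clec9a* and *Ccr7*) summed to 2.37 to 2.70 FPKM in ND-fed, 3.40 to 3.62 in control, 3.13 to 3.26 in HYA-treated and 3.29 to 4.05 in LA-treated livers, so that ND-fed and HYA-treated livers both lay below all control livers. Only 1 of these 8 dendritic cell genes was tested. It was not called in control against ND (log2 difference 0.06) or in HYA against control (0.05). No share over all genes was taken for the sums, and the part of dendritic cells in the *Itgax* result was not tested.

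Cholangiocyte markers bear on *Spp1*, *Cd9* and *Cd44*, which bile duct cells also express. The 9 genes, led by *Sox9*, *Epcam* and *Krt19*, summed to 3.33 to 4.49 FPKM in ND-fed, 4.47 to 7.53 in control, 3.03 to 3.94 in HYA-treated and 4.82 to 7.71 in LA-treated livers. HYA-treated livers were thus below all control livers (0.569 of control, exact permutation p = 0.1). *Epcam* was at 0.898, 2.38, 0.863 and 1.71 FPKM in ND, control, HYA and LA, and fell by 0.84 in HYA against control (adjusted p = 0.0357). Relative to this sum, 7 of 9 members were higher in control than in ND without overlap, against 2.56% of all tested genes, among them *Spp1* (3.39-fold, exact permutation p = 0.1). In HYA against control its ratio to the sum was 0.662-fold and the groups overlapped (exact permutation p = 0.2). *Cd63* alone of the 9 members was lower in HYA than in control without overlap on this scale (0.644-fold, exact permutation p = 0.1, with 0.117% of all tested genes), and the ratio of *Cd9* was 1.01-fold that of control. In LA against control the ratios of *Gpnmb* (0.744-fold) and *Itgax* (0.776-fold) were lower without overlap (exact permutation p = 0.1 each). The other 7 overlapped, and no share over all genes was taken. The part of bile duct cells in the *Spp1* and *Cd9* results was not tested further.

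Stellate cell and myofibroblast markers (12 genes, led by *Ecm1*, *Dcn* and *Col3a1*) summed to 78.4 to 112 FPKM in ND-fed, 137 to 169 in control, 132 to 146 in HYA-treated and 146 to 179 in LA-treated livers. Of these 7 were called higher in control against ND and 4 lower in HYA against control, among them *Col3a1* (from 18.04 to 9.60 FPKM, -0.83, adjusted p = 0.0296). Hepatocyte markers (10 genes, led by *Alb*, *Apoa1* and *Ttr*) moved the other way, with 7 of 10 called lower in control against ND and 1 higher in HYA against control, and their sum in HYA-treated livers was 1.23-fold that of control livers without overlap. Endothelial markers (10 genes, led by *Eng*, *Clec4g* and *Dnase1l3*) were called higher for 5 and lower for 0 in control against ND, and 0 passed in HYA against control. Over all 11083 tested genes, 1795 were called higher and 2115 lower in control against ND. In HYA against control these were 174 and 136. No share over all genes was taken for the sums. The part of stellate cells, hepatocytes and endothelial cells in the members' values was not tested.

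**Figure D4:**
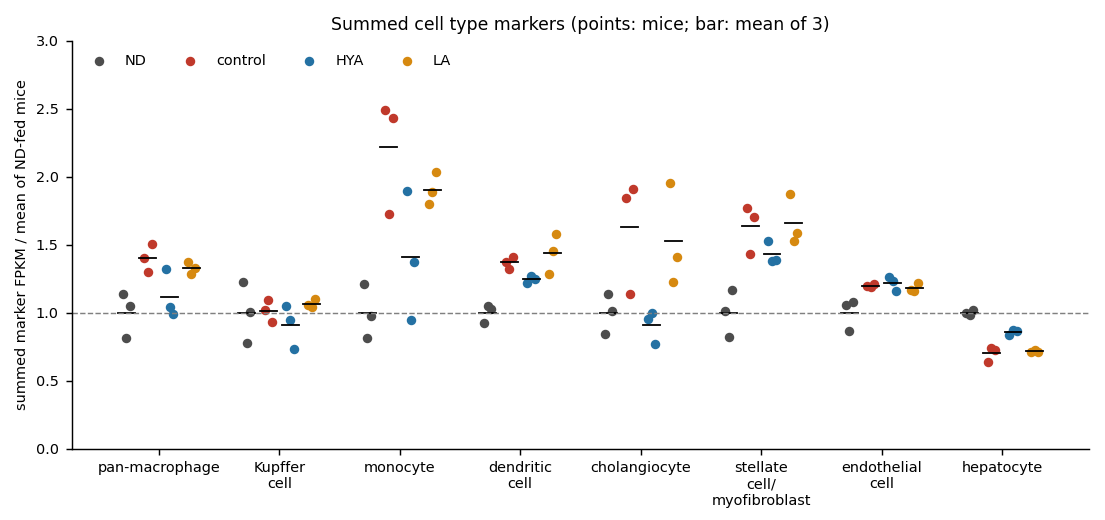
Summed FPKM of marker lists for 8 cell types, divided by the mean of the 3 ND-fed mice (linear axis from 0), with 1 point per mouse and a bar for each group mean. Pan-macrophage, monocyte and stellate sums are higher in control than in ND-fed livers, Kupffer cell sums overlap, and hepatocyte sums are lower.

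Other cells were at low levels. Neutrophil markers (9 genes, led by *S100a9*, *Csf3r* and *S100a8*) summed to 2.49 to 3.47 FPKM in ND-fed, 4.70 to 8.98 in control, 2.69 to 7.96 in HYA-treated and 4.43 to 5.33 in LA-treated livers. Control livers lay above all ND-fed livers (2.22-fold, exact permutation p = 0.1), and 0 of the 2 tested neutrophil markers were called in that comparison. Lymphocyte markers (12 genes, led by *Nkg7*, *Cd79b* and *Trac*) summed to 3.14 to 6.98 FPKM over the 12 livers. Cell cycle genes (8 genes, led by *Ccnb2*, *Mki67* and *Top2a*) summed to 1.26 to 1.76 FPKM in ND-fed, 5.83 to 7.55 in control, 2.30 to 3.30 in HYA-treated and 5.12 to 6.35 in LA-treated livers, with HYA-treated livers below all control livers. Adipocyte markers (6 genes, led by *Cfd*, *Adrb3* and *Adipoq*) were highest in ND-fed livers (8.02 to 10.6 FPKM). Of 6 pancreatic acinar markers 4 were at 0 in every mouse, the other two being *Prss2* and *Cela3b*. None of the lymphocyte, cell cycle or pancreatic markers reached the limit for the test.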

How the data were processed

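Liver mRNA of 12 mice was sequenced. The submitters' processing notes name fastp, HISAT2 2.0.5, featureCounts 1.5.0-p3 and the GRCm38 build, without their order or parameters, and the authors deposited FPKM values for 54532 genes, of which 28487 were 0 in every mouse. The methods name TPM, but columns summed to 342146 to 429286, so values were read as FPKM. Every column with values was assigned to a mouse by its name. The FPKM steps gave whole fragments for 100% of the values checked (within 0.1 fragment), and depth on genes was recovered from them. Values with the most fragments, among them *Spp1* in the high-fat diet livers, were rounded outside that check.

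Differences were tested with limma 3.58.1 (R 4.3.3) on log2(FPKM + 1) with all 12 mice in 1 fit, for 11083 genes averaging 1 FPKM or more, with adjustment by Benjamini-Hochberg over all of them. Intervals are at 95%, and counting intervals cover counting error only. The limma fit was tested on simulated data, and the other steps were not. Tables were handled with Python 3.11.15 and pandas 2.3.3. Gene coordinates were identical to GENCODE M21 for 98.327% of shared genes.

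The members and gene lists were chosen with earlier results of these data known. Every member is named, and of each related list the genes called in HYA against control or LA, otherwise the 2 largest changes called in control against ND. Of each marker list the 3 most abundant genes are named, with tests for those called. A marker gene of the cholangiocyte list is not reported here, and the sum of that list leaves it out. *Krt8* and other similar genes are the leading ones by Pearson correlation. Alternatives were another pseudocount, filters, scalings, voom on recovered fragments, fewer samples and a replicate block. The voom fit with a mean of 10 fragments and the scaling by fragments on genes were chosen after seeing the data.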

Additional observations from a re-analysis of the deposited data

How the results depend on the processing

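Of 1056 values of the members under alternatives, 1047 kept their direction, 68 called values lost the call and 8 gained one. The 9 that changed sign were not called and arose on leaving out 1 mouse. In LA against control these were the log2 differences of *Spp1* (-0.45 to 0.12, at 0.12 without control mouse 1 and 0.024 without LA-treated mouse 2), *Cd9* (-0.16 to 0.05, at 0.015 without control mouse 3 and 0.050 without LA-treated mouse 3), *Lgals3* (-0.40 to 0.048) and *Cd44* (-0.060 to 0.071, at 0.058 without control mouse 3), and in HYA against LA that of *Fabp5* (-0.24 to 0.14, at 0.13 without LA-treated mouse 1). With no filter on low values, called members numbered 2 in HYA against control, 0 in HYA against LA and 3 in HYA against ND. With a mean of at least 0.1 FPKM, 1 was called in HYA against LA. With only the compared groups in the fit, 0 were called in HYA against control and 1 in HYA against LA. With an absolute difference above 1 in log2(FPKM + 1) required, 2 were called in HYA against control and 5 in LA against ND. Under the same requirement 0 were called both in HYA against LA and in HYA against ND. On leaving out 1 mouse, the counts ranged from 0 to 6 in HYA against control, 0 to 3 in HYA against LA, 3 to 6 in HYA against ND and 7 to 8 in LA against ND, and stayed at 8 in control against ND and 0 in LA against control. Related genes called in HYA against control numbered 4 with no filter, 21 as TPM, 18 scaled by fragments on genes, 11 with voom at 10 fragments and 0 to 13 without 1 mouse, and in HYA against LA 0 to 7 without 1 mouse. Cell type markers called numbered 37 in control against ND with a mean of at least 0.1 FPKM and 36 with voom at 10 fragments, and 3 with no filter, 9 with voom at 10 fragments and 0 to 6 without 1 mouse in HYA against control. Without 1 mouse they numbered 0 to 4 in HYA against LA and 6 to 13 in HYA against ND. The cause was not tested.

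Scaling mattered for all genes. As TPM, the median log2 difference of control against ND moved from -0.04 to 0.17 and the calls from 1795 higher and 2115 lower to 3792 and 732, while HYA against control moved from 174 and 136 to 97 and 400. Scaled by fragments on genes these were 3193 and 851, and 107 and 324. The summed pan-macrophage log2 difference of control against ND was 0.74 as TPM, beside 0.50. All-gene calls in HYA against control were 17 and 12 without control mouse 1 and 0 and 0 without HYA-treated mouse 2 (limma, 1473 genes at an unadjusted p under 0.05).

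Mice with the same number shared only a number (correlation of deviations -0.396 to 0.294, above 0.1 in 3 of 18 pairs, with 2 mice closest to their own number). With a replicate block 8 members were called in control against ND as in LA against ND, 6 in HYA against control, 3 in HYA against LA and 5 in HYA against ND, and 12 related genes and 8 cell type markers in HYA against control.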
